A study of Saccharomyces cerevisiae with 15 samples.

Results

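The expression of 57 genes of meiosis and spore formation was followed in haploid budding yeast cells that were dividing by mitosis. The genes were chosen by name, from the SPO, SPS, SPR, DIT, REC, HOP, ZIP, IME, CDA and LDS genes and related genes of meiosis and spore wall assembly. All 57 are among the 6692 yeast features of the table, and all 57 passed the filter on low counts that left 6562 features for testing. They were grouped by role into 7 regulators and kinases, 11 recombination genes, 9 genes of the chromosome axis, synapsis and cohesion, 12 genes of the prospore membrane and its spindle pole plaque, 15 spore wall genes and 3 other sporulation-induced genes.

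In diploid cells that starve, the transcription factor Ime1 and the kinase Ime2 start meiosis. Early genes, for recombination and chromosome pairing, are held down in growing cells by Ume6 with the Sin3-Rpd3 deacetylase and Isw2, bound at a promoter element called URS1, and Ime1 turns them on through Ume6. Middle genes, for the nuclear divisions, the prospore membrane and the spore wall, carry a middle sporulation element that Sum1 represses and the transcription factor Ndt80 activates. Haploid cells do not normally enter meiosis, in part because Rme1 represses IME1 in them.

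The libraries were RNA-seq of whole cells of strain BY4741, a MATa haploid with his3∆1 leu2∆ met15∆ ura3∆, and the parent (WT) and the deletion strains were all grown at 30 °C in synthetic complete medium without isoleucine and valine. The 5 groups of 3 libraries were WT without sulfometuron (SM), WT with 1 µg/ml SM for 25 min, and strains with SPT3, SPT8 or GCN5 replaced by kanMX4 (called spt3, spt8 and gcn5), all 3 with the same SM treatment. SM blocks synthesis of the branched-chain amino acids and so induces the transcription factor Gcn4. Spt3, Spt8 and Gcn5 are subunits of the SAGA coactivator, of which Gcn5 is the histone acetyltransferase. Deletion strains without SM are not analysed here, so for each strain the level before treatment and the response to it cannot be told apart.

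Depth ran from 24.8 to 45.7 M yeast counts per library, and ERCC spike-in RNA added per amount of total RNA set the scale. A level here is a raw count divided by the spike-in size factor of its library, called a scaled count, and a call is a Benjamini-Hochberg adjusted p under 0.05 in the edgeR quasi-likelihood test over all 6562 features. Another scaling tried, TMM, assumes that most genes do not change, and it moves the median log2 difference of all features with SM from 0.54 to 0.04. Scaling by total spike-in counts gives a median of 0.40, with 49.9% of features called higher and 12.2% lower. The deleted gene had 1 to 3 raw counts for SPT3 in spt3, 11 to 17 for SPT8 in spt8 and 12 to 29 for GCN5 in gcn5, against at least 668 for any of these genes in each other strain. LEU2 and MET17 (MET15), absent from the parent, had 70 and 82 counts in library 1 of WT without SM and at most 6 elsewhere. Library 3 of gcn5 stood apart from the other 2 of its group, with a chi-square per degree of freedom of 101 and 74.8 against 16.2 between those 2. Library names fall in 2 sets, WT with spt3 and spt8 with gcn5, so in spt8 or gcn5 against WT, and in spt3 against spt8 or gcn5, the strain and the set cannot be told apart. The labels do not say whether the 3 libraries of a group came from separate cultures, so p-values measure only the spread between them, which may be technical.

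By summed level the mating type markers were those of MATa cells. The 7 a-specific genes summed to between 89519 and 102054 scaled counts in WT without SM, and the 6 alpha-specific genes to between 4630 and 4889. MATALPHA1, the activator of alpha-specific genes, had 0 to 12 raw counts in any library, but MATALPHA2 had 194 to 594. In WT without SM the means of SAG1, STE3, MF(ALPHA)1 and MF(ALPHA)2 were 3936, 525, 42.5 and 16.9 scaled counts. In WT with SM these sums were 154554 to 181572 and 10213 to 12326; their part in the results on meiosis genes was not tested.

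Promoter sequences are shown for 6 of the genes: 3 with very large rises in SM (LDS1, CDA2 and SPO21), the early gene MEK1, and 2 of the genes that were furthest below WT in the gcn5 strain (SMK1 and SPS4). Each window holds 250 bases and ends 50 bases before the start codon, read 5′ to 3′ on the gene's strand from the RefSeq R64 genome, which is the sacCer3 build. Capitals mark 3 motifs: GGCGGC is the URS1 core bound by Ume6, CACAAAA is the core of the middle sporulation element, and TGACTCA is a Gcn4 site. All 3 were searched on both strands, so the middle element core also appears in capitals as its complement, read backwards. Only these exact letters were sought, so variant sites are neither marked nor counted, and a window without a motif may hold a variant.
LDS1 (chrI:119592-119841, minus strand): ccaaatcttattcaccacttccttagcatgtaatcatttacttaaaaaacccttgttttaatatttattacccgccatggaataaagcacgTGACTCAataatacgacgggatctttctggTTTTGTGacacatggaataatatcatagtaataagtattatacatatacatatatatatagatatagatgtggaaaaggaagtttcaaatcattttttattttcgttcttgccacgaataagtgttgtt
CDA2 (chrXII:747637-747886, plus strand): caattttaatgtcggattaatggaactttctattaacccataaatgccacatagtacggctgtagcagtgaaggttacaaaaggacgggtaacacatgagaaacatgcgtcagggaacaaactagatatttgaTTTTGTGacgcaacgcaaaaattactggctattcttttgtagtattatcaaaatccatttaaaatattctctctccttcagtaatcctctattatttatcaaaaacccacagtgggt
SPO21 (chrXV:145034-145283, plus strand): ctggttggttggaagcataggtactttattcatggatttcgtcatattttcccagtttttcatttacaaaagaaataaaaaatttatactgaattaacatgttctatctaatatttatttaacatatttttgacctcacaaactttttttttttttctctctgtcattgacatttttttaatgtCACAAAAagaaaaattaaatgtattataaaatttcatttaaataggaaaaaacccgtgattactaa
MEK1 (chrXV:996562-996811, minus strand): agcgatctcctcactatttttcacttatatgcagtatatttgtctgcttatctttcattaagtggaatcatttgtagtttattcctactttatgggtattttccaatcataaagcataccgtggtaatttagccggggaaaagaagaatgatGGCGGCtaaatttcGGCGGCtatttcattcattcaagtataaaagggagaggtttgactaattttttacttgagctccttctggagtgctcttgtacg
SMK1 (chrXVI:665980-666229, plus strand): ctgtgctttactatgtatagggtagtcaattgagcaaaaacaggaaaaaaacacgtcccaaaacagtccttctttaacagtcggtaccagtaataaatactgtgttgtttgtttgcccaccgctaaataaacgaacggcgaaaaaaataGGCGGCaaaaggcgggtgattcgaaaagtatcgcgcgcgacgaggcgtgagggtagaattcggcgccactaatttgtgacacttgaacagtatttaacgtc
SPS4 (chrXV:902925-903174, minus strand): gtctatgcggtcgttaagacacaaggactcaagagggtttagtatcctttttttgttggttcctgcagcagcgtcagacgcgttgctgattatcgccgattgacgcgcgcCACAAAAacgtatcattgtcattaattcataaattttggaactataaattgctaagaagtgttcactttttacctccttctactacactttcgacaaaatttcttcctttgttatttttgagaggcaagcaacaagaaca

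The window of LDS1 was the only one of the 57 with the Gcn4 site, whose first base lies 209 bases before the start codon, and it also held a middle element core at 179. MEK1 held the URS1 core in 2 copies, at 148 and 134 bases, and SMK1 in 1 copy at 151. The URS1 core was found in 16 of the 57 windows (28.1%) against 4.74% of the windows of 6539 tested features. The middle element core was found in 19 (33.3%) against 5.89%, and the Gcn4 site in 1 (1.75%) against 2.43%. By role, the URS1 core was in 6 of 11 recombination genes, 6 of 9 axis and synapsis genes, 2 of 12 prospore membrane genes, 2 of 7 regulators and 0 of 15 spore wall genes. The middle element core was in 8 of 12 prospore membrane genes, 6 of 15 spore wall genes, 3 of 3 other sporulation-induced genes, 1 recombination gene and 1 regulator, and in 0 of 9 axis genes. In 23 windows none of these letters was found, among them those of SPS2 and DTR1, whose rises in SM were larger than that of SPO21. The 6 windows shown each hold at least 1 motif, so they do not stand for all 57.

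With SM in WT, 54 of the 57 genes rose, against 55.6% of all tested features, and 0 fell, against 7.57%. The 4 largest rises were in spore wall genes: LDS1, SPS2, CDA2 and DTR1. The median log2 difference of the 57 was 2.14, and 0.54 over all features. For 0 of the 57 was the difference below 0, so the count of falls is also 0 at an unadjusted p under 0.05 and by DESeq2; with TMM 53 rose and 2 fell, against 41.3% and 37.3% of all features, and the median was 1.63 against 0.04.

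**Figure D1:**
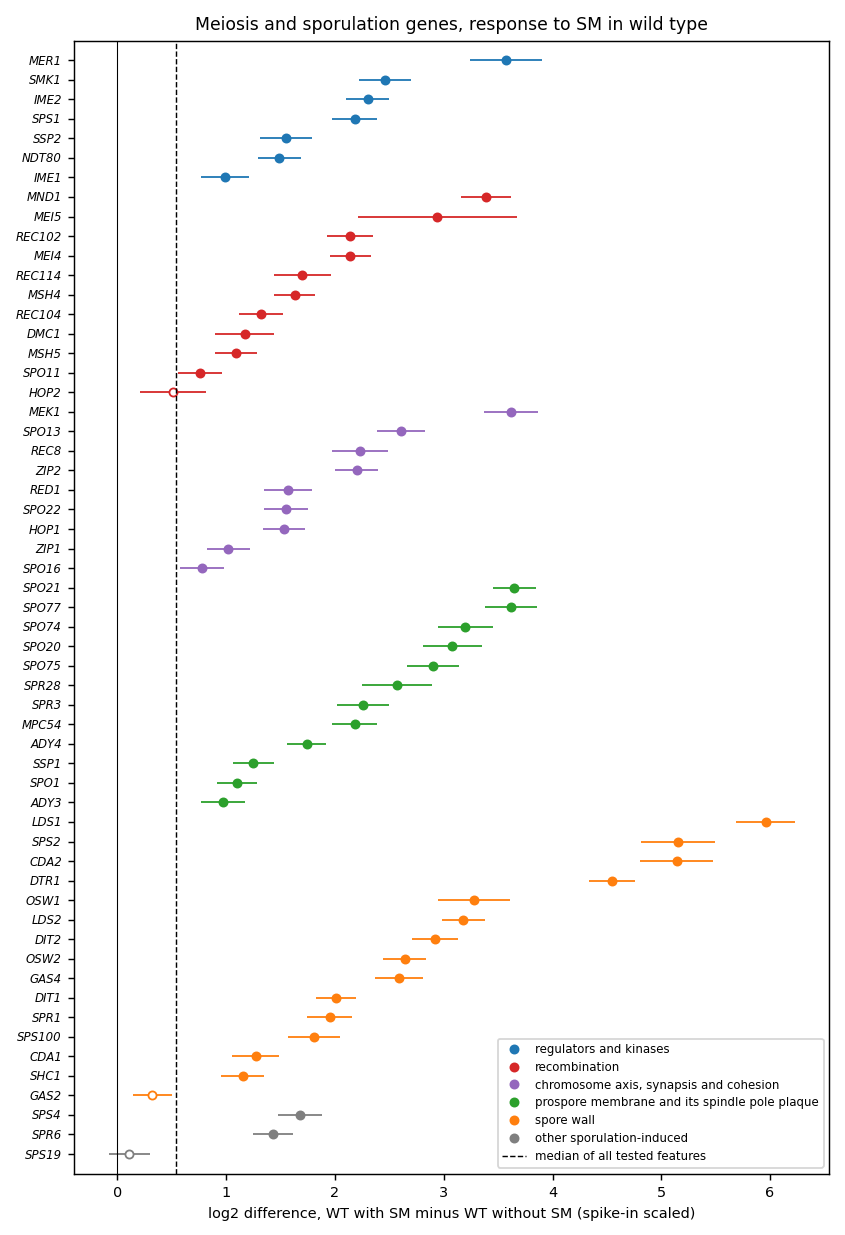
The log2 difference between WT with SM and WT without SM (x axis, spike-in scaled, bars are SE) is plotted for each of the 57 genes, coloured by role. Filled points passed the test and the dashed line is the median of all tested features, 0.54; LDS1 lies farthest right at 5.96, and HOP2, GAS2 and SPS19 are open.

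The meiosis genes were mostly expressed at low levels, and lowly expressed features rose more than others in general. Level classes were set by the mean over all libraries, most of them with SM, and not by the level before SM. In the lowest of 4 level classes of all features, with a mean of up to 905 scaled counts, 73.9% rose with a median of 1.38. The 44 meiosis genes in that class had a median of 2.22, and 42 of them rose. In the next class 11 meiosis genes had a median of 1.43 against 0.56 for all its features, and 10 of the 11 rose, against 57.8%. Their share of all yeast counts, which needs no spike-in, was 0.0464% to 0.0524% in WT without SM and 0.125% to 0.136% with SM. The groups do not overlap and differ 2.70-fold; the exact 2-sided permutation p of 0.1 is the smallest that 3 against 3 can give (BH-adjusted 0.233 over 7 comparisons).

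**Figure D2:**
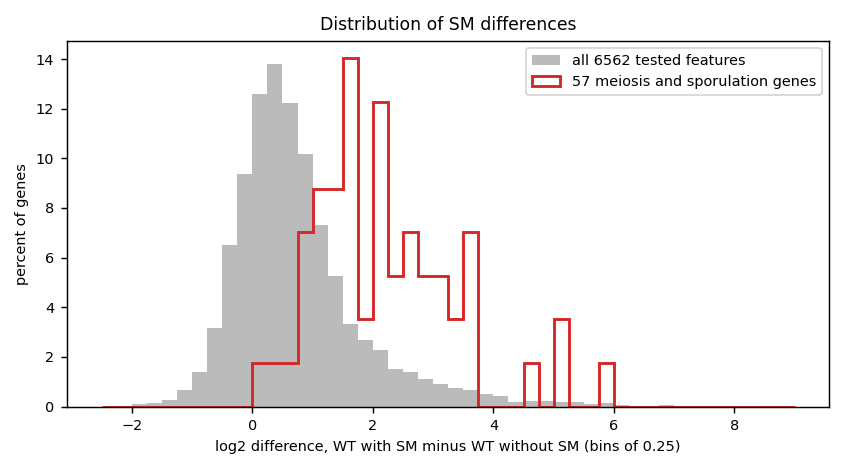
The share of genes (y axis, percent) is plotted by log2 difference with SM in WT (x axis) for all 6562 tested features in grey and for the 57 meiosis and sporulation genes in red. The red outline lies wholly above 0, with a median of 2.14 against 0.54 for the grey bars.

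Of the 7 regulators and kinases all 7 rose, against 55.6% of all features, with a median of 2.18. IME1 (YJR094C, chromosome X, 604569 to 605651), the inducer of meiosis, had 844, 1034 and 862 scaled counts in WT without SM and 2021, 2021 and 1400 with SM. The groups are apart, by 0.99 log2 (SE 0.22, edgeR adjusted p = 0.000135). Per kb of coding length IME1 had the highest level of the 57, with 2428 scaled counts per kb over all libraries, ahead of ADY4 at 2066 and ADY3 at 1870. For IME2 (YJL106W, chromosome X, 221390 to 223327), the kinase that acts after Ime1, the values were 826, 778 and 816 without SM, and 3886, 4423 and 3575 with SM. This is a rise of 2.30 log2 (SE 0.20, adjusted p = 1.4e-12, edgeR). NDT80 (YHR124W, chromosome VIII, 356561 to 358444), the activator of middle genes, went from 166, 112 and 138 to 372, 430 and 369, or 1.49 log2 higher (SE 0.20, edgeR adjusted p = 3.57e-08). MER1, which activates splicing of meiotic transcripts, rose by 3.57, the spore wall kinase SMK1 by 2.46, the kinase SPS1 by 2.18 and SSP2, an activator of Smk1, by 1.55.

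Among recombination genes 10 of 11 rose, against 55.6% of all features, with a median of 1.63. MND1, of the complex that helps the recombinases pair homologous DNA, rose by 3.39, and its partner HOP2 was not called at 0.51 (adjusted p = 0.134). MND1 shares 13 bases with YGL182C, and the RefSeq end of HOP2 differs from the table's, so their counts are uncertain. REC102 and MEI4, needed to form the double-strand breaks of meiosis, rose by 2.14 each, and their partners REC114 and REC104 by 1.70 and 1.32. SPO11, the enzyme that makes the breaks, rose by 0.76, and DMC1, the meiotic recombinase, by 1.17. The mismatch repair relatives MSH4 and MSH5, which stabilise crossover intermediates, rose by 1.63 and 1.09. MEI5, an accessory factor of Dmc1, had the lowest level of the 57, at 16.2 scaled counts per kb. It had 1, 0 and 3 raw counts in WT without SM and 12, 9 and 5 with SM; no fold is given at this depth.

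All 9 genes of the chromosome axis, synapsis and cohesion rose, against 55.6% of all features, with a median of 1.57. MEK1 (YOR351C, chromosome XV, 995018 to 996511), the axis-bound kinase that steers repair to the homologue, had 18.7, 14.2 and 15.9 scaled counts without SM and 199, 229 and 181 with SM. It was 3.62 log2 higher (SE 0.25, edgeR adjusted p = 1.67e-15). SPO13, needed for the pattern of the first meiotic division, rose by 2.61 and the meiotic cohesin subunit REC8 by 2.23. The axis proteins HOP1 and RED1 rose by 1.53 and 1.57. Among genes of synapsis ZIP2 rose by 2.20, SPO22 by 1.55, ZIP1, the central component of the synaptonemal complex, by 1.02 and SPO16 by 0.78; SPO16 is the rise that TMM loses (0.29, adjusted p = 0.0655).

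All 12 genes of the prospore membrane and its plaque rose, against 55.6% of all features, with a median of 2.41. SPO21 (YOL091W, chromosome XV, 145334 to 147163), a component of the meiotic outer plaque from which the membrane grows, had 261, 252 and 239 scaled counts without SM and 2933, 3676 and 2832 with SM. Its rise was 3.65 log2 (SE 0.20, edgeR adjusted p = 3.58e-18). The other plaque genes SPO74, MPC54 and ADY4 rose by 3.20, 2.18 and 1.74; ADY4 went from 951, 898 and 935 scaled counts to 3097, 3494 and 2717. SPO20, the SNARE of the prospore membrane, rose by 3.08, and SPO77 and SPO75 by 3.62 and 2.90. The sporulation septins SPR28 and SPR3 rose by 2.57 and 2.26, and SSP1 and ADY3, of the coat at the leading edge of the membrane, by 1.25 and 0.97. ADY3 was already high without SM, at 2914, 2500 and 2270 scaled counts, and held 16.6% of the scaled counts of the 57 genes there.

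Of the 15 spore wall genes 14 rose, against 55.6% of all features, with a median of 2.64. LDS1 (YAL018C, chromosome I, 118564 to 119541), a lipid droplet protein of spore wall assembly, had 17.9, 17.9 and 9.55 scaled counts without SM and 979, 1023 and 830 with SM. At 5.96 log2 (SE 0.27, edgeR adjusted p = 9.3e-21) this was the largest rise of the 57; its neighbours FUN30 and PSK1 differed by 0.31 and 0.02 and were not called. SPS2 (YDR522C, chromosome IV, 1483795 to 1485303), a spore wall protein, had 3.90, 5.66 and 3.18 scaled counts without SM, and 163, 178 and 118 with SM. CDA2 (YLR308W, chromosome XII, 747937 to 748875), a chitin deacetylase that makes the chitosan layer, had 5.46, 4.72 and 2.39 without SM, and 132, 188 and 133 with SM. The rises are 5.15 for SPS2 and 5.14 for CDA2 (SE 0.34 for both, edgeR adjusted p = 3.66e-16 and 6.77e-16). Their sizes are uncertain, as SPS2 had 5, 6 and 4 raw counts without SM and CDA2 7, 5 and 3. Both have an adjacent gene that rose by a similar amount: YDR521W, 318 bases from SPS2, by 4.58 and DPA10, 825 bases from CDA2, by 4.89.

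DTR1 (YBR180W, chromosome II, 589741 to 591459), the transporter of the dityrosine precursor, had 57.7, 49.1 and 43.8 scaled counts without SM and 1115, 1295 and 1126 with SM, a rise of 4.55 (SE 0.21, edgeR adjusted p = 3.04e-20). DIT2 and DIT1, which make that precursor, rose by 2.92 and 2.01; DIT2 shares 553 bases with YDR401W on the opposite strand, so its counts are uncertain. CDA1, the other chitin deacetylase, rose by 1.27. OSW1, LDS2, OSW2 and GAS4 rose by 3.28, 3.18, 2.64 and 2.59, the glucanase SPR1 by 1.95, SPS100 by 1.81 and SHC1, an activator of spore chitin synthesis, by 1.15. The glucanosyltransferase GAS2 was high before SM, at 1018, 1008 and 943 scaled counts, and was not called at 0.32. In the remaining class SPS4 rose by 1.68 and SPR6 by 1.43. SPS19, a peroxisomal reductase, had overlapping groups (414, 254 and 329 against 354, 400 and 324) and was not called at 0.11. It shares 473 bases with YNL203C on the opposite strand. Under TMM GAS2 and SPS19 were called lower, at −0.18 and −0.39.

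Genes next to the 57 were read in the same way. Of 114 pairs of a member and an adjacent gene, the adjacent gene was called higher in 65 and lower in 6, beside 55.6% and 7.57% of all features. In 98 pairs it had a lower difference than the meiosis gene. Some genes recur: DPA10 lies beside CDA1 and CDA2, and HOP1 and SPO22, DIT1 and DIT2, and SPS1 and SPS2 neighbour each other. With repeats removed the median of the adjacent genes was 0.50. For 44 of the 57 the difference was above that of both neighbours. The 57 had a median of 2.14 against 0.54 for all features, so most genes set beside them would be lower. Local effects were not tested. Genes with the URS1 core had a median rise of 1.92 and the other members 2.14; for the middle element core the medians were 2.26 and 1.98. Over all tested features the medians were 0.55 with and 0.54 without the URS1 core, 0.80 and 0.52 for the middle element core, and 1.26 and 0.52 for the Gcn4 site.

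Other genes of the pathway, none of them among the 57, were counted from lists of known genes. With SM in WT 55.6% of all features rose and 7.57% fell (41.3% and 37.3% with TMM). Of 33 tested further meiosis and sporulation genes 29 rose with SM (27 with TMM) and 1, SPO12, fell by 0.45, with a median of 1.64. The largest rises there were SMA2 (5.27) and SMA1 (4.41), both of the prospore membrane, ECM11 (4.25), of the synaptonemal complex, and SPR2 (4.14). Without SM SMA2 had 12, 2 and 6 raw counts and SMA1 11, 7 and 7, so the sizes of their rises are uncertain. Of 8 activators upstream of IME1 and IME2, 5 rose, among them the mRNA methyltransferase IME4 (3.91) and its cofactor SLZ1 (3.02), and 1, the RNA-binding protein gene RIM4, fell by 0.73. The rise of IME4 starts from 5, 7 and 11 raw counts and is uncertain in size too. Of 13 mitotic repressors 6 rose and 0 fell, with a median of 0.42; the fall count is also 0 at an unadjusted p under 0.05 and by DESeq2, but with TMM 2 rose and 5 fell. HOS2, a deacetylase of the Set3 complex, rose by 1.36 and RME1 by 0.71, while UME6 and SIN3 were not called (−0.07 and −0.23). All 7 a-specific genes, all 5 tested alpha-specific genes and 7 of 8 haploid-specific genes rose, with medians of 0.83, 1.20 and 0.64 (4, 4 and 2 rose with TMM). The largest alpha-specific rise was that of the pheromone gene MF(ALPHA)2, at 3.44.

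Against WT with SM, 48 of the 57 genes were not called in spt3, 51 in spt8 and 34 in gcn5 (84.2%, 89.5% and 59.6%), beside 64.3%, 87.9% and 59.1% of all features. Their share of yeast counts was 0.122% to 0.126% in spt3, 0.135% to 0.141% in spt8 and 0.119% to 0.134% in gcn5, against 0.125% to 0.136% in WT with SM. Exact 2-sided permutation p were 0.2, 0.2 and 0.5 (BH-adjusted 0.28, 0.28 and 0.583 over 7 comparisons), where 0.1 is the smallest possible. All 3 libraries lay above all 3 of WT without SM for 56 of the 57 genes in WT with SM, 52 in spt3, 55 in spt8 and 49 in gcn5. For all features these shares are 63.8%, 69.7%, 72.6% and 50.3%. The genes not above WT without SM in gcn5 were SMK1, SPS4, SPR6, SPS19, REC114, DMC1, ADY3 and GAS2; 2 of these 8 lay wholly below it. The comparisons of the 3 strains with WT share its 3 SM libraries.

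**Figure D3:**
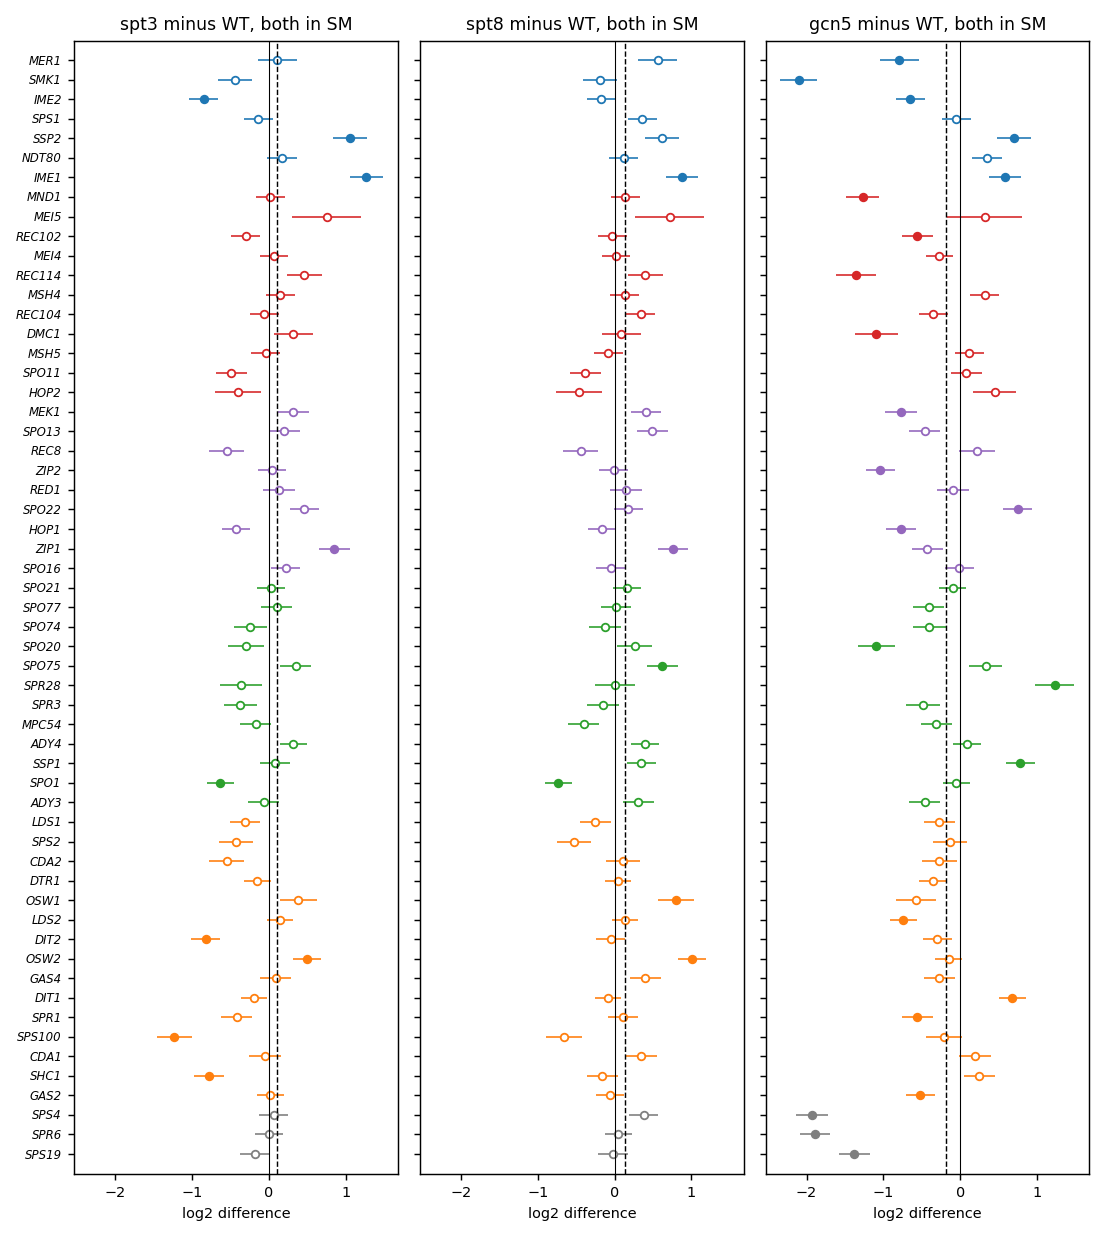
Log2 differences between spt3, spt8 or gcn5 and WT, all with SM (x axis, bars are SE), are plotted for the 57 genes in the order and colours of the plot of SM differences. Filled points passed the test and dashed lines are medians of all features (0.11, 0.13 and −0.19); gcn5 has the most filled points on the left, 17, led by SMK1 at −2.10.

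In spt3 against WT 4 genes rose and 5 fell (7.02% and 8.77%), against 21.7% and 14.0% of all features, and the median was 0.00 against 0.11. IME1 had 5799, 3411 and 3888 scaled counts in spt3, above each WT library with SM, and rose by 1.27 (SE 0.22, edgeR adjusted p = 1.44e-05). IME2 had 2745, 1744 and 2107, below each WT library, and fell by 0.85 (SE 0.19, edgeR adjusted p = 0.000647). SSP2 had 706, 476 and 534 against 330, 265 and 226 in WT, a rise of 1.06. ZIP1 had 3214, 2426 and 2536 against 1531, 1797 and 1194 and rose by 0.85 (edgeR adjusted p = 0.000974). OSW2, at 1306, 1090 and 1041 against 753, 924 and 746, rose by 0.50, a call lost without library 1 or 3 of WT or library 1 of spt3.

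The largest fall in spt3 was that of SPS100, a protective spore wall protein. It had 1240, 818 and 999 scaled counts, against 2716, 2625 and 1808 in WT, and fell by 1.23 (SE 0.23, edgeR adjusted p = 7.54e-05). SHC1 had 1007, 814 and 830 against 1598, 1792 and 1162, a fall of 0.78, and DIT2 had 654, 468 and 562 against 981, 1054 and 935, a fall of 0.82. SPO1, a phospholipase relative needed for the prospore membrane, had 412, 329 and 446 against 657, 661 and 516 and fell by 0.63. All 9 calls are on groups that do not overlap. Without library 1 of spt3 the falls are 9, against 1049 of 6572 features, and with these 2 groups alone they are 9, against 14.7%. With TMM 6 rose and 19 fell, against 33.9% and 31.4% of all features.

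In spt8 against WT 5 genes rose and 1 fell, against 6.57% and 5.58% of all features, and the median was 0.11 against 0.13. OSW2 had 1640, 1752 and 1482 scaled counts and rose by 1.01 (SE 0.18, edgeR adjusted p = 0.000136). OSW2 (chromosome XII, 248717 to 250978) starts 293 bases from the end of SPT8, on the same strand, so in this strain it lies beside the inserted marker; the marker's part in the rise was not tested. IME1 had 2787, 3884 and 3345, above each WT library, and rose by 0.88 (SE 0.21, edgeR adjusted p = 0.0046). ZIP1 had 2296, 2938 and 2425 and rose by 0.76, SPO75 had 410, 449 and 466 against 260, 352 and 249 and rose by 0.62, and OSW1 had 106, 144 and 151 against 59.9, 93.4 and 76.5 and rose by 0.80. SPO1 had 369, 393 and 344 and fell by 0.73. Without library 2 of spt8 1 gene is called higher, against 1.80% of all features, without library 3 of WT 2 are, against 1.86%, and without library 3 of spt8 3 are, against 3.80%. The call of IME1 is lost without library 2 of spt8 (edgeR adjusted p = 0.0501), and that of ZIP1 without it or library 3 of WT. OSW1 is lost without library 1 or 3 of WT or 2 or 3 of spt8, and SPO75 without any of these or library 1 of spt8. Without library 3 of WT 2 genes are called lower, against 5.10%. With TMM 10 rose and 9 fell, against 23.9% and 21.1% of all features, and with these 2 groups alone 14 rose and 6 fell, against 26.7% and 11.7%.

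In gcn5 against WT 6 genes rose and 17 fell. These are 10.5% and 29.8% of the 57, beside 10.5% and 30.4% of all features, so the counts are those of the background, and the median of −0.27 lies near −0.19. SMK1 (YPR054W, chromosome XVI, 666280 to 667446) had 54.9, 88.6 and 124 scaled counts in gcn5, against 363, 425 and 360 in WT with SM and 90.5, 45.3 and 71.6 in WT without SM. Its gcn5 libraries overlapped WT without SM and lay below all 3 of WT with SM, from which it fell by 2.10 log2 (SE 0.24, edgeR adjusted p = 5.29e-09). SPS4 (YOR313C, chromosome XV, 901858 to 902874) had 176, 208 and 303 against 889, 1013 and 712 and a difference of −1.93 (SE 0.21, edgeR adjusted p = 1.61e-09). SPR6 (YER115C, chromosome V, 394292 to 394867) had 308, 286 and 426 against 1352, 1354 and 1079, with −1.89 (SE 0.19, edgeR adjusted p = 3.71e-10). SPS19 had 134, 128 and 153 against 354, 400 and 324, with −1.38, below WT without SM as well.

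By role, the falls in gcn5 were in 3 of 7 regulators, 4 of 11 recombination genes, 3 of 9 axis and synapsis genes, 1 of 12 prospore membrane genes, 3 of 15 spore wall genes and 3 of 3 other genes. Of all features 30.4% fell, and whether the roles differ was not tested. REC114 had 24.4, 44.8 and 31.3 scaled counts against 97.7, 85.7 and 76.5 in WT, a difference of −1.35. MND1 (−1.27), DMC1 (−1.09) and ZIP2 (−1.04) also fell, as did SPO20 (−1.09), MEK1 (−0.77) and HOP1 (−0.77). The genes that rose were SPR28, SSP1, SPO22, SSP2, DIT1 and IME1. SPR28 had 146, 132 and 192 against 77.7, 68.1 and 54.6 and rose by 1.23 (SE 0.25, edgeR adjusted p = 0.000133). SPO22 had 1748, 1936 and 3308 against 1497, 1449 and 1206 and rose by 0.75. SSP1 had 509, 466 and 654 against 329, 337 and 282 and rose by 0.78, and DIT1 had 1111, 1124 and 1383 against 799, 821 and 641 and rose by 0.68.

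IME1 had 2105, 2213 and 3826 scaled counts in gcn5 and rose by 0.58 (edgeR adjusted p = 0.0274), but not without library 3 of gcn5 (0.26) or library 3 of WT (0.42). SSP2 had 281, 404 and 651, overlapping WT, and its rise of 0.70 is lost without the same libraries (0.34 and 0.57). IME2 had 2061, 2093 and 3410 and fell by 0.65 (edgeR adjusted p = 0.00635). Library 3 of gcn5 was the highest of the 3 for IME1, SSP2 and IME2. Its spike-in share of counts was 1.26%, against 1.8% and 1.74% in libraries 1 and 2. A lower spike-in share scales up a library as a whole. Without library 3 the median of all features in gcn5 against WT is −0.39 in place of −0.19. Then 32 of the 57 are called lower, against 51.2% of all features. With TMM 13 rose and 19 fell, against 34.2% and 33.4% of all features.

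**Figure D4:**
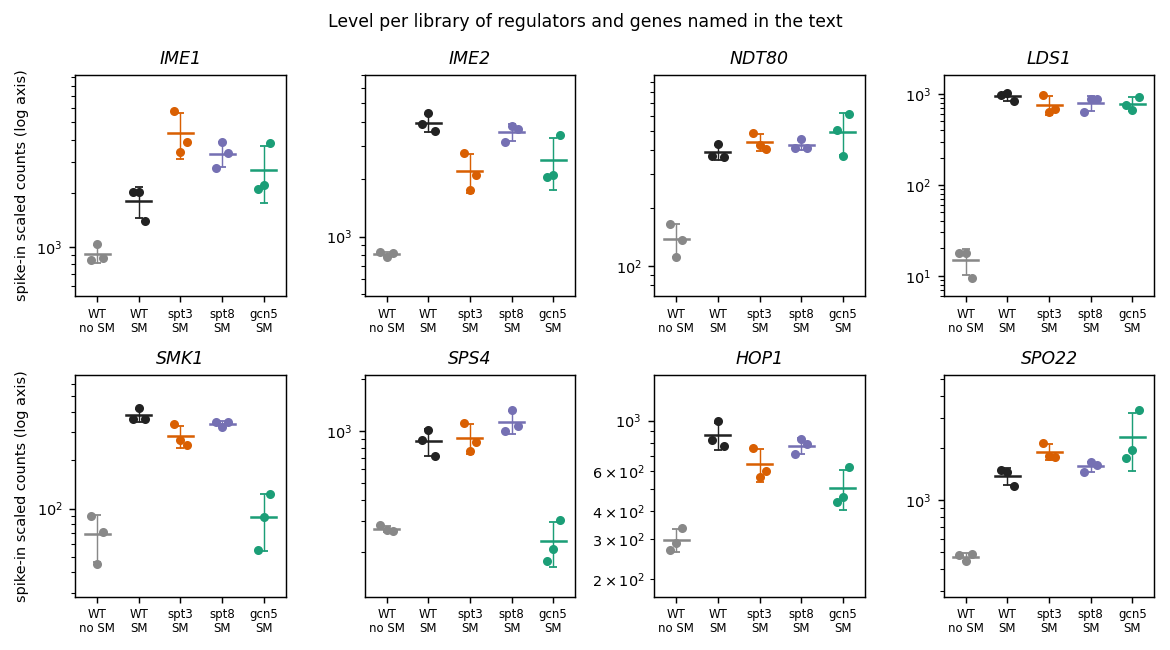
Scaled counts on a log axis are plotted for 8 genes in the 5 groups. Points are libraries, horizontal lines are means and bars are SD (n = 3). IME1 is above WT with SM in spt3, spt8 and gcn5, and IME2 is below it in spt3 and gcn5. SMK1 and SPS4 in gcn5 overlap WT without SM.

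Between the deletion strains, spt3 and spt8 lie in different library sets. In spt3 2 of the 57 genes were lower than in spt8, DIT2 (−0.77, edgeR adjusted p = 0.0154) and IME2 (−0.68, adjusted p = 0.036), against 2.39% of all features. None was higher (0 at an unadjusted p under 0.05, 0 by DESeq2 and 1.10% of all features). Leaving out library 2 or 3 of spt3, or 2 or 3 of spt8, ends both calls, and without library 1 of spt8 IME2 is lost; with TMM 3 were higher and 14 lower, against 16.9% and 14.3%, and with these 2 groups alone 9 were lower, against 5.73%.

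Against gcn5, spt3 was higher in 19 genes and lower in 10, beside 37.3% and 9.72% of all features. Without library 3 of gcn5 31 genes were higher in spt3, against 4206 of 6572 features, and without library 2 of spt3 6 were lower, against 7.53%. In spt3 SPS4 had 1113, 761 and 862 scaled counts, SPR6 had 1476, 1089 and 1223 and REC114 had 133, 102 and 125. In gcn5 SHC1 had 1557, 1357 and 2508 and SPS100 had 1709, 1450 and 3030. The largest differences were SPS4 (1.99), SPR6 (1.89) and REC114 (1.82) on the high side and SPR28 (−1.59), SHC1 (−1.03) and SPS100 (−1.02) on the low side. For spt8 against gcn5, whose libraries belong to 1 set, 24 were higher and 6 lower, beside 37.1% and 7.76%. In spt8 SPS4 had 996, 1322 and 1073 scaled counts, SPR6 had 1152, 1441 and 1324 and SMK1 had 345, 320 and 344. SPS4 (2.30), SPR6 (1.94) and SMK1 (1.91) led the high side and SPR28 (−1.22), HOP2 (−0.91) and DIT1 (−0.77) the low side. HOP2 had 35.3, 40.0 and 17.9 scaled counts in spt8 and 63.5, 70.7 and 42.1 in gcn5, and its call is lost without library 3 of spt8 or library 2 of gcn5. With TMM spt3 was higher in 18 and lower in 21 (33.6% and 30.6% of all features), and spt8 higher in 22 and lower in 18 (31.1% and 31.3%).

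Ratios of 2 members in the same library need no scaling. HOP1 and SPO22 are divergent neighbours on chromosome IX with 647 bases between them. HOP1 had 819, 996 and 773 scaled counts in WT with SM and 436, 459 and 623 in gcn5. The log2 ratio of HOP1 to SPO22 counts was −0.67 ± 0.16 (SD, n = 3) in WT without SM and −0.68 ± 0.17 with SM. It was −1.58 ± 0.10 in spt3, −1.02 ± 0.02 in spt8 and −2.16 ± 0.22 in gcn5, and each strain lay wholly below WT with SM. DIT2 and DIT1, divergent neighbours on chromosome IV with 898 bases between them, had a ratio of −0.52 in WT without SM and 0.40 with SM. In spt8 it was 0.44, overlapping WT, and in spt3 and gcn5 it was −0.24 and −0.62, wholly below WT with SM.

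**Figure D5:**
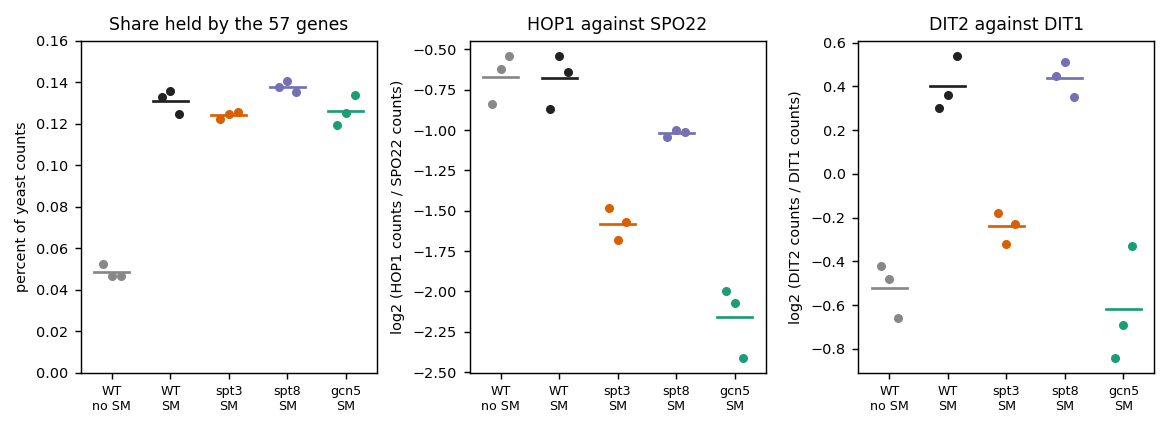
The left panel shows the percent of yeast counts held by the 57 genes, the middle panel the log2 ratio of HOP1 to SPO22 raw counts and the right panel that of DIT2 to DIT1, with 1 point per library and lines for means. The share lies at 0.0464% to 0.0524% in WT without SM and at 0.119% to 0.141% in the other groups; HOP1 against SPO22 is lowest in gcn5 at −2.16.

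CDA2 and CDA1, on the same strand of chromosome XII with DPA10 between them, had a log2 ratio of −3.92 in WT without SM and −0.09 with SM; CDA1 itself went from 69.4, 62.3 and 66.8 to 151, 190 and 138 scaled counts. For SPS2 and SPS1, which follow each other on chromosome IV with 262 bases between them, it was −5.35 and −2.47, and SPS1 went from 202, 183 and 172 to 869, 963 and 702. Both ratios without SM rest on few raw counts, 7, 5 and 3 for CDA2 and 5, 6 and 4 for SPS2. The pair IME2 and IME1 was chosen after its values were seen: the ratio was −0.17 in WT without SM, 1.14 with SM, −0.98 in spt3, 0.09 in spt8 and −0.09 in gcn5. Over the 20 comparisons of these 5 pairs, exact 2-sided permutation p were 0.1, the smallest possible, wherever the groups do not overlap, which is 0.133 after BH adjustment.

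The same lists were read in the deletion strains, where the shares of all features that rose and fell were 21.7% and 14.0% in spt3, 6.57% and 5.58% in spt8, and 10.5% and 30.4% in gcn5. In spt3 8 of the 13 mitotic repressors rose, among them ISW2 (1.04) and UME6 (1.00), and RME1 fell by 0.75. In spt8 2 rose, UME6 by 0.65 and ISW2 by 0.64, and in gcn5 0 were called by edgeR or DESeq2, 1 having an unadjusted p under 0.05; with TMM 8 rose in gcn5 and 1 fell, against 34.2% and 33.4% of all features. Whether these counts differ between strains was not tested. Of the 33 further meiosis and sporulation genes 7 rose and 11 fell in spt3, 4 and 5 in spt8, and 4 and 16 in gcn5, where PCH2, a checkpoint ATPase, fell by 1.75 (edgeR adjusted p = 1.58e-09). Of the 8 activators 1, RIM4, fell by 0.78 in spt3 and 3 fell in gcn5, SLZ1 (−1.17), IME4 (−0.82) and MUM2 (−0.81). Of the a-specific genes 6 of 7 fell in gcn5, led by ASG7 (−3.36), and of the haploid-specific genes 5 of 8, led by FUS1 (−1.76); in gcn5 the a-specific sum was 75076 to 109690 scaled counts.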

How the data were processed

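RNA-seq of 15 libraries was analysed from the table of raw read counts per feature that the authors deposited; per the submitters' processing notes they used STAR, SAMtools and DESeq2 with sacCer3. For versions, counting program, strand setting and reads shared by copies: not given in the sources used here. Per the labels' protocols, stranded and paired-end libraries were made after rRNA depletion. Of 6692 yeast identifiers, 6008 match RefSeq R64, 6000 of them at the same start and end; of the 57 members 56 do.

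Size factors were medians of ratios over the 74 spike-ins seen in every library. Raw counts of features kept by filterByExpr were tested with edgeR 4.0.16 (R 4.3.3, limma 3.58.1), all 5 groups in 1 quasi-likelihood fit, with Benjamini-Hochberg adjustment over 6562 features and calls at 0.05; the SE is the log2 difference divided by the square root of F. The common coefficient of variation was 16.1%. The test was checked on simulated data. Alternatives were TMM, total spike-in counts, no filter, DESeq2 1.42.0, only the 2 groups compared, a replicate block and each library left out. Ratios of 2 genes had 0.5 counts added to each. Tables were made with numpy 2.4.6, pandas 2.3.3 and scipy 1.17.1 in Python 3.11.15, and figures with matplotlib 3.10.9.

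Members and lists were chosen with earlier results of these data known. Values in every library are given by a rule: for IME1, IME2 and NDT80, for the 6 largest rises with SM, and for the 5 largest changes each way per strain, the 3 largest each way between strains, members beside a deleted gene or another member, and the 3 highest and 3 lowest levels per kb. Library values of GAS2 and CDA1, outside the rule, were added after they were seen. A list names up to 4 genes, the called ones with the largest change.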

Additional observations from a re-analysis of the deposited data

How the results depend on the processing

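The 54 rises with SM in WT were 52 to 54 under TMM, total spike-in scaling, no filter, DESeq2, 2 groups alone or a replicate block, and 54 to 55 with 1 library left out. Of all features 40.8% to 65.1% rose in the former settings and 48.0% to 57.1% in the latter. Falls there were 0 except with TMM (2, or 1 with a replicate block): GAS2 at −0.18 under both and SPS19 at −0.39 under TMM alone. Of all features 37.3% fell with TMM, 36.6% with the block added and 4.88% to 12.5% in the other settings. Under TMM, with and without the block, SPO21 was called lower in spt3 than in gcn5 (−0.17) and LDS1 lower in spt8 than in gcn5 (−0.31). Counts in the strains moved more, and the cause was not tested. With TMM, 19 members fell in spt3 (18 with the block; 9 in 2 groups alone), 10 rose and 9 fell in spt8 (9 and 9 with the block) and 13 rose in gcn5 (13). Of all features 31.4% fell in spt3 with TMM (30.7% with the block, and 14.7% in 2 groups alone). In spt8 23.9% rose and 21.1% fell (22.4% and 20.2%), and in gcn5 34.2% rose (33.1%). Total spike-in scaling gave 8 rises in spt8, against 11.6% of all features. Its 2 groups alone gave 14 rises and 6 falls, against 26.7% and 11.7%. For spt3 against spt8 TMM gave 3 rises and 14 falls (3 and 12 with the block), and 2 groups alone 9 falls. The shares of all features there were 16.9% and 14.3% (14.9% and 12.9%), and 5.73%. Against gcn5 the TMM falls were 21 for spt3 (21) and 18 for spt8 (17), beside 30.6% (29.9%) and 31.3% (30.2%) of all features.

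With 1 library left out, rises ranged from 3 to 4 in spt3, 1 to 5 in spt8 and 4 to 7 in gcn5, and falls from 5 to 9, 1 to 2 and 13 to 32. Of all features, 11.9% to 24.1% rose in spt3 in these fits, 1.80% to 4.70% in spt8 and 6.48% to 13.4% in gcn5. In spt3 697 of 6571 to 1049 of 6572 features fell, in spt8 3.44% to 5.10% and in gcn5 22.1% to 51.2%. Between strains rises ranged over 0 to 0, 15 to 31 and 19 to 35 (spt3 against spt8, spt3 against gcn5, spt8 against gcn5) and falls over 0 to 3, 6 to 10 and 4 to 9. In the same order, 0.122% to 1.11%, 1640 to 4206 of 6572, and 24.1% to 63.4% of all features rose. Falls over all features were 0.624% to 2.75%, 7.53% to 10.9% and 5.54% to 8.91%. The 32 falls in gcn5 and the 31 and 35 rises against it are those without its library 3. The shares of all features were also highest there.

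Replicate numbers do not pair the libraries: deviations of libraries with the same number correlated at −0.373 to 0.228 (median −0.046), and those with different numbers at −0.337 to 0.302 (median −0.016). A replicate block left 1 fall in place of 2 in spt3 against spt8, and 1 rise fewer in spt3 against WT (3), spt8 against WT (4) and spt8 against gcn5 (23). With it 1.74% of all features fell in spt3 against spt8, and 18.7%, 4.69% and 33.7% rose in the comparisons named after it. The other counts of members were the same with it. Depth limits MEI5 most, with 0 to 20 raw counts per library.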
